A study of Citrus x limon with 9 samples.

Results

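The 8 genes described here were grouped as floral organ identity MADS-box genes and were measured in lemon buds. They are 1 DEFICIENS-like gene, 2 SEPALLATA 1-like genes, 1 AGL11-like gene and 1 AGL8 homolog. Also among them are genes named MADS-box transcription factor 6-like, 14-like and 15-like, 1 of each. All 8 were chosen by identifier from the names of their best protein matches. The rule used no measured value but was written with earlier results of these data known. They are 8 of the 22353 genes of the expression table. They are not every such gene of the table: Cs6g19680, a SEPALLATA1 homolog by best match, is not among them. RNA sequencing had been performed on 9 libraries of terminal buds and the 5 buds that follow them on spring flushes of Femminello lemon, on grafted trees of 1 to 2 years that stood on trifoliate orange rootstocks in a greenhouse kept at 23 °C or above. The 3 libraries of stage 1 were from trees that were watered to saturation, sampled 1 week before water deficit. Stage 2 is 1 week after the deficit of 2 weeks had begun, and stage 3 is 1 week after full watering was resumed, again with 3 libraries each. According to the methods of the study, the replicates came from 3 groups of 3 trees, so p-values measure the spread between groups of trees. No library from trees kept watered throughout was analysed here, so the effect of water supply and that of the date of sampling cannot be told apart.

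MADS-box proteins are transcription factors that bind DNA as dimers and larger complexes. In the ABCE model, worked out in Arabidopsis and Antirrhinum, combinations of these proteins in each whorl of the young flower set the identity of sepals, petals, stamens and carpels, with a further class for ovules. Genes of the APETALA1 and FRUITFULL clade act earlier, when a meristem takes on floral identity. The names of the 8 genes are those of their closest proteins in sequence, mostly coined for other species, and no function in lemon is implied by them. All 8 carry the KEGG entry of plant MADS-box transcription factors, and each has 1 transcript in the table. The GO terms are uneven: 4 of the 8 genes carry none, Cs7g11800 is also annotated to the chloroplast thylakoid and the response to light intensity, and Cs5g12270 to oxidoreductase activity.

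Expression is given as FPKM, a count of fragments that is scaled to the length of the gene and to the total mapped in the library. To compare stages, log2(FPKM + 1) was fitted with limma over all 9 libraries, and p-values were adjusted by the Benjamini-Hochberg method over the 17729 genes with at least 1 FPKM in at least 3 libraries. All 8 genes passed this filter. A gene was called a DEG (differentially expressed gene) when its adjusted p was under 0.05 and its log2 fold change reached 1 in either direction. Because 1 FPKM was added to every value, the fitted fold changes are smaller than the true ones in weakly expressed genes, and ratios of mean FPKM are given beside them. Means are given with the SD of 3 libraries.

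All 8 genes had low levels in buds at every stage. Their means over the 9 libraries ran from 1.22 FPKM for Cs2g22050 to 6.74 FPKM for Cs9g16540, which are the 24.7th and 45.3rd percentiles of the means of all genes. By this mean the order was Cs9g16540, Cs7g11800, Cs5g12270, Cs3g25600, orange1.1t02588, Cs6g19710, Cs5g17820 and Cs2g22050. Most neighbours in this order could not be separated, because their libraries overlapped at every stage. The exceptions were Cs5g12270 above Cs3g25600 at stages 2 and 3, Cs3g25600 above orange1.1t02588 at stage 3, and orange1.1t02588 above Cs6g19710 at stage 1. Among the 46 MADS-box genes of the table, found by best match or KEGG entry, the 8 took ranks 16, 17, 18, 20, 23, 26, 28 and 29. Other MADS-box genes lay on both sides of them. Above were orange1.1t00278 (SOC1-like protein 1) with 80.7 FPKM and Cs5g10810 (FLOWERING LOCUS C-like) with 66.2 FPKM, and below were the AGL8 homologs Cs6g19700 and Cs6g13550 with 0.646 and 0.0633 FPKM, both named after their values had been seen.

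**Figure D1:**
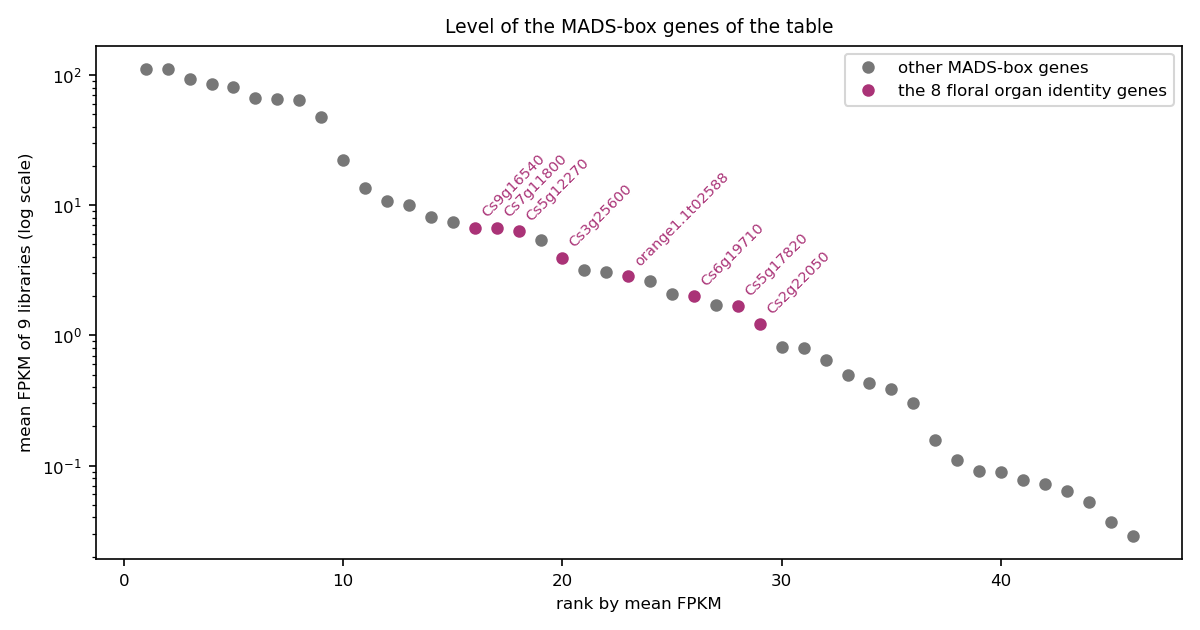
Mean FPKM over 9 libraries (log scale) of the 46 MADS-box genes of the table against their rank by that mean. Coloured points are the 8 floral organ identity genes, which sit between 1.22 and 6.74 FPKM at ranks 16 to 29, and grey points are the other 38 MADS-box genes.

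One member was called in each of the 3 comparisons, and it was a different gene each time. The DEFICIENS-like gene Cs3g25600 was lower at stage 2 than at stage 1, the SEPALLATA 1-like gene Cs7g11800 was higher at stage 3 than at stage 2, and the gene orange1.1t02588 was lower at stage 3 than at stage 1. In the first comparison, the 1 called member of 8 stands beside 7.85% of all tested genes called, 4.66% of them as lower. In the second, stage 3 against stage 2, 7.46% of all tested genes were called, 4.92% as higher. In the third, stage 3 against stage 1, 4.93% were called, 2.24% as lower. With 1 gene of 8 the members' share cannot be separated from these shares, so the counts are no result about the 8 genes as a group. By the NOISeq-style probability, the alternative closest to the test of the study, 0 of the 8 genes were called in any comparison, beside 4.29%, 4.24% and 3.11% of all genes. The comparisons share libraries, those of stage 2 entering both the first and the second, and the 3 results are therefore not independent.

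**Figure D2:**
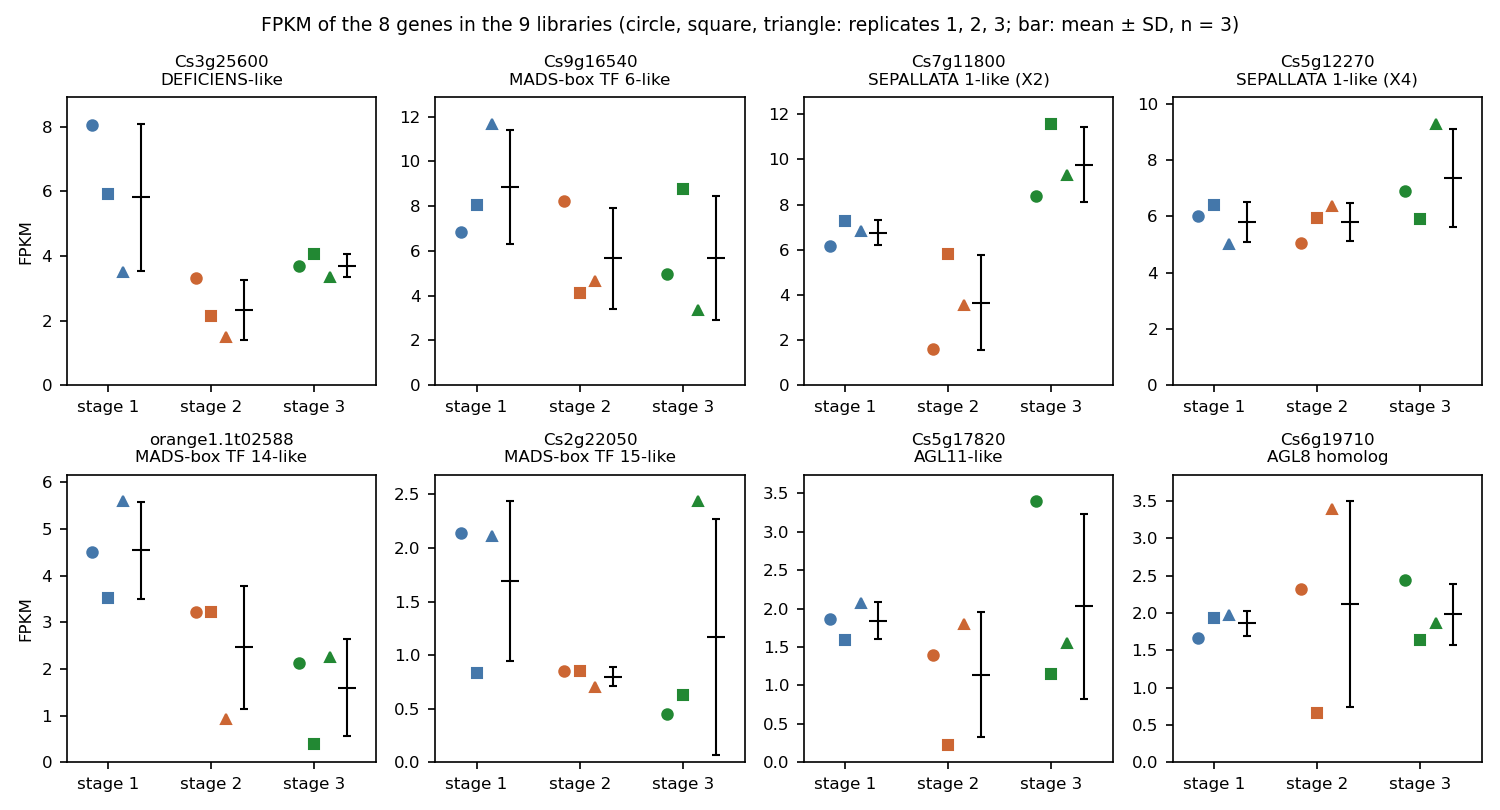
FPKM of each of the 8 genes in every library by stage, 3 libraries per stage, with the mean and SD. Each panel has its own axis from 0. Cs3g25600 falls from a mean of 5.82 to 2.32 FPKM between stages 1 and 2, Cs7g11800 stands at 9.76 FPKM at stage 3 against 3.66 FPKM at stage 2, and orange1.1t02588 goes from 4.54 to 1.6 FPKM between stages 1 and 3.

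Cs3g25600 is the DEFICIENS-like gene. DEFICIENS of Antirrhinum, the counterpart of Arabidopsis APETALA3, is the B-class gene that gives petals and stamens their identity. Its FPKM was 8.04, 5.93 and 3.49 in the 3 libraries of stage 1, 3.33, 2.14 and 1.50 at stage 2, and 3.68, 4.07 and 3.36 at stage 3. The libraries of stages 1 and 2 did not overlap, though by a narrow margin, since the lowest library of stage 1 lay just above the highest of stage 2. The mean fell from 5.82 ± 2.28 to 2.32 ± 0.929 FPKM (n = 3 each), a ratio of 0.399, with a log2 fold change of -1.02 (SE 0.27, 95% interval -1.60 to -0.43) and an adjusted p of 0.011 by limma. In bulk buds, fewer cells of a type and less RNA per cell cannot be told apart. Libraries that did not overlap were common in this comparison, at 50.0% of all tested genes and 22.2% in the direction of lower values at stage 2. Of the 8 members 3 were among them (Cs3g25600, Cs7g11800 and orange1.1t02588), each lower at stage 2.

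The call of Cs3g25600 stood close to the fold threshold and was lost when any of 4 libraries was left out. Without stage 1 replicate 1, which held the highest value, the log2 fold change was -0.78 with an adjusted p of 0.051. Without stage 1 replicate 2 it was -0.98, without stage 2 replicate 2 it was -0.99 and without stage 2 replicate 3 it was -0.83, with adjusted p-values of 0.038, 0.032 and 0.041, so that in these 3 fits by limma only the fold threshold was missed. At stage 3 the mean was 3.7 ± 0.356 FPKM, and every library lay above every library of stage 2. That difference of 0.54 (95% interval -0.05 to 1.12) did not pass the test (adjusted p = 0.14). Against stage 1 the difference was -0.48 (-1.07 to 0.11), with an adjusted p of 0.22 and overlapping libraries.

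SEPALLATA genes of Arabidopsis are E-class genes, whose proteins join those of the other classes in complexes in all whorls. Cs7g11800 had 6.16, 7.26 and 6.85 FPKM at stage 1, 1.59, 5.83 and 3.56 at stage 2, and 8.36, 11.59 and 9.32 at stage 3. Each stage was separated from both others, stage 2 lowest and stage 3 highest. Between stages 2 and 3 the mean rose from 3.66 ± 2.12 to 9.76 ± 1.66 FPKM, a ratio of 2.67, with a log2 fold change of 1.30 (SE 0.28, 95% interval 0.68 to 1.93, adjusted p = 0.0039 by limma). In this comparison 46.4% of all tested genes had libraries that did not overlap, 19.9% with higher values at stage 3, and 2 of the 8 members, Cs7g11800 and Cs3g25600, were among them.

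The size of this rise rested in part on stage 2 replicate 1, whose 1.59 FPKM was the lowest value of Cs7g11800. Without that library the log2 fold change was 0.94 with an adjusted p of 0.0053, which missed the fold threshold, and when each of the other 5 libraries was left out in turn it was 1.19 to 1.64 and stayed called. Between stages 1 and 2 the ratio was 0.542 and the log2 fold change -0.84 (-1.46 to -0.22), with an adjusted p of 0.036 that passed and a fold that did not. When stage 2 replicate 2 was left out it was -1.17 with an adjusted p of 0.0035 and was called, and without stage 2 replicate 1 it was -0.47 with an adjusted p of 0.095. Between stages 1 and 3 the libraries did not overlap either, at a ratio of 1.44, but the difference of 0.46 (-0.16 to 1.08) did not pass the test (adjusted p = 0.26). There, 43.7% of all tested genes did not overlap, and the members among them were Cs7g11800, higher, and orange1.1t02588, lower.

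Cs7g11810, whose identifier follows that of Cs7g11800 and which carries the same KEGG entry, was looked up after the values had been seen. Its best match is a hypothetical protein of Citrus clementina. Its means were 20.9 ± 2.1, 17.5 ± 0.355 and 28.7 ± 2.5 FPKM at stages 1, 2 and 3, so it too was lowest at stage 2 and highest at stage 3. Between stages 2 and 3 its log2 fold change was 0.68 with an adjusted p of 0.00019 by limma, under the fold threshold. Whether reads are shared between the 2 gene models was not tested.

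Cs5g12270, the other SEPALLATA 1-like gene, had 6.02, 6.39 and 5.03 FPKM at stage 1, 5.07, 5.95 and 6.38 at stage 2, and 6.90, 5.91 and 9.30 at stage 3. The libraries of all stages overlapped. Its means were 5.81 ± 0.703, 5.8 ± 0.668 and 7.37 ± 1.74 FPKM, and the differences were -0.00 (-0.38 to 0.37, adjusted p = 0.99) of stage 2 from stage 1 and 0.28 (-0.09 to 0.66, adjusted p = 0.22) of stage 3 from stage 2. These are the narrowest intervals among the 8 genes, and they leave room for changes within 0.38 in either direction in the first comparison and up to 0.66 higher in the second. Cs5g12280 and Cs5g12290, MADS-box genes whose identifiers follow that of Cs5g12270, were looked up after the values had been seen. Cs5g12280 had means of 7.98, 10.7 and 11.6 FPKM at stages 1, 2 and 3, and its libraries overlapped in every comparison. Cs5g12290 had 97.8, 132.7 and 102.3 FPKM and was highest at stage 2, unlike Cs7g11810.

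Cs6g19680, the SEPALLATA1 homolog outside the 8, was looked up after the values had been seen. Its FPKM was 0.13, 0.00 and 0.00 at stage 1, 0.66, 0.65 and 0.00 at stage 2, and 0.27, 0.52 and 0.51 at stage 3. It did not pass the filter and was not tested.

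The ratio of Cs7g11800 to Cs5g12270 was then taken in each library, a measure chosen after the values had been seen. An exact permutation test of its log2 gave p of 0.1, 0.1 and 0.7 in the 3 comparisons. With 3 libraries per stage that test cannot go below 0.1, and on a measure so chosen it decides nothing. The ratio is therefore given as a description. The ratio was 1.02, 1.14 and 1.36 at stage 1, 0.314, 0.98 and 0.558 at stage 2, and 1.21, 1.96 and 1 at stage 3. All 3 libraries of stage 2 lay below all others, the nearest being 0.98 at stage 2 and 1 at stage 3. On the log2 scale the mean ratio was 0.22 ± 0.21, -0.85 ± 0.82 and 0.42 ± 0.50 at stages 1, 2 and 3.

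Cs9g16540 matched MADS-box transcription factor 6-like. OsMADS6 of rice belongs to the AGL6 clade, sister to the SEPALLATA genes, and acts in floral organ identity and the floral meristem. Its FPKM was 6.84, 8.04 and 11.69 at stage 1, 8.25, 4.11 and 4.64 at stage 2, and 4.95, 8.76 and 3.34 at stage 3. The stages overlapped, and each of the later stages held 1 library at the level of stage 1. The means were 8.86 ± 2.53, 5.67 ± 2.25 and 5.68 ± 2.78 FPKM. The difference of stage 2 from stage 1 was -0.58 (-1.26 to 0.09, adjusted p = 0.16), and that of stage 3 from stage 1 was -0.61 (-1.29 to 0.07, adjusted p = 0.17). Neither passed the test, and both intervals still include differences beyond -1.

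3 of the genes matched proteins of the APETALA1 and FRUITFULL clade, so by name the group is not limited to organ identity. OsMADS14 and OsMADS15 of rice act in the identity of inflorescence and floral meristems, and AGL8 is the earlier name of Arabidopsis FRUITFULL, which acts in meristem identity and in fruit development. The gene orange1.1t02588 (MADS-box transcription factor 14-like) had 4.50, 3.52 and 5.60 FPKM at stage 1, 3.22, 3.22 and 0.93 at stage 2, and 2.13, 0.40 and 2.26 at stage 3. The libraries of stage 1 lay above all others, and those of stages 2 and 3 overlapped. From stage 1 to stage 3 the mean fell from 4.54 ± 1.04 to 1.6 ± 1.04 FPKM, a ratio of 0.352, with a log2 fold change of -1.17 (SE 0.38, 95% interval -2.00 to -0.35, adjusted p = 0.038 by limma). At stage 2 the mean of 2.46 ± 1.32 FPKM was 0.541 of that of stage 1, a difference of -0.75 (-1.58 to 0.07, adjusted p = 0.14) that did not pass.

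The call of orange1.1t02588 also depended on single libraries. Without stage 3 replicate 2, which held the lowest value, the log2 fold change was -0.78 with an adjusted p of 0.13. When stage 1 replicate 1, 2 or 3 was left out it was -1.17, -1.31 or -1.04, with adjusted p-values by limma of 0.091, 0.054 and 0.12. It was lost as well with pseudocounts of 0.1 and 0.01 (adjusted p of 0.062 and 0.071), without the trend (0.066) and without a filter on low values (0.063), all with the same direction.

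Cs2g22050 (MADS-box transcription factor 15-like) had the lowest level of the 8 genes. Its FPKM was 2.14, 0.83 and 2.11 at stage 1, 0.85, 0.85 and 0.70 at stage 2, and 0.45, 0.63 and 2.44 at stage 3. It reached 1 FPKM in only 3 of the 9 libraries, the smallest number that the filter allowed, and stages 1 and 3 each held libraries on both sides of that value. The differences from stage 1 were -0.54 (-1.29 to 0.21) at stage 2 and -0.38 (-1.13 to 0.37) at stage 3, with adjusted p-values of 0.24 and 0.46 by limma.

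Cs6g19710 (AGL8 homolog) had 1.67, 1.93 and 1.97 FPKM at stage 1, 2.32, 0.66 and 3.39 at stage 2, and 2.44, 1.64 and 1.87 at stage 3. The widest spread was at stage 2, whose libraries held both the lowest and the highest value of the gene. The means of 1.86 ± 0.163, 2.12 ± 1.38 and 1.98 ± 0.412 FPKM differed by less than this spread, and the intervals of the 3 differences were -0.67 to 0.71, -0.65 to 0.72 and -0.63 to 0.74. None passed the test. The gene Cs6g19700, picked for this comparison of names, has the same best match and means of 0.137, 0.793 and 1.01 FPKM at stages 1, 2 and 3. If the counting split reads between these 2 genes, the values of both are uncertain.

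Cs5g17820 is the AGL11-like gene. AGL11 of Arabidopsis, also named SEEDSTICK, is a D-class gene of ovule identity. Its FPKM was 1.87, 1.59 and 2.07 at stage 1, 1.39, 0.23 and 1.80 at stage 2, and 3.40, 1.15 and 1.55 at stage 3. Stage 2 overlapped with both other stages, and the lowest value of all, in stage 2 replicate 2, was close to 0. The means were 1.84 ± 0.241, 1.14 ± 0.814 and 2.03 ± 1.2 FPKM. Stage 2 differed from stage 1 by -0.49 (-1.24 to 0.26, adjusted p = 0.29), and stage 3 differed from stage 2 by 0.52 (-0.23 to 1.27, adjusted p = 0.27), and neither passed the test.

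**Figure D3:**
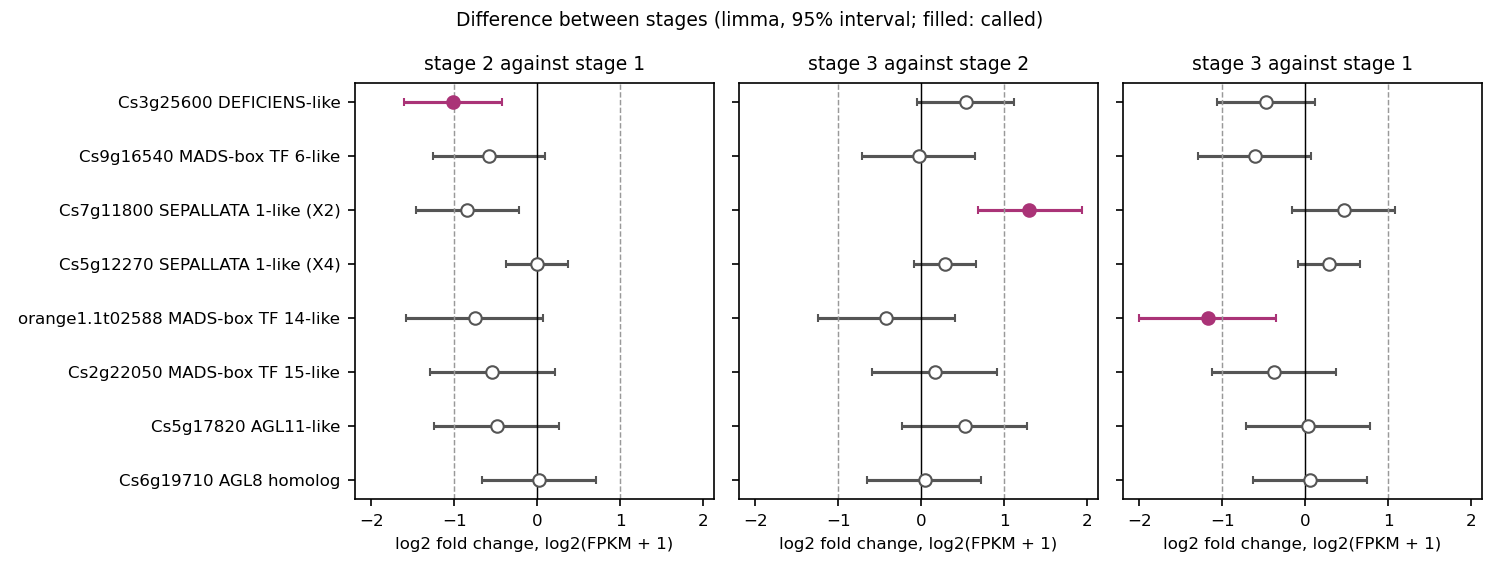
Log2 fold change of the 8 genes on the log2(FPKM + 1) scale in the 3 comparisons, with 95% intervals from limma. Filled points are called genes and dashed lines mark the fold threshold of 1 in either direction. One filled point stands in each panel: Cs3g25600 at -1.02, Cs7g11800 at 1.30 and orange1.1t02588 at -1.17.

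Across the 8 genes, 7 log2 fold changes were below 0 for stage 2 against stage 1, with a median of -0.56, whereas the median of all tested genes was 0.05 and 44.9% of them were below 0. One of the 7 is Cs5g12270 at -0.00, whose sign changed in 3 of 6 fits with a library left out. Among the 6672 tested genes with a mean of 1 to 10 FPKM the median was 0.03, and 47.6% were below 0. From stage 2 to stage 3, 6 of the 8 were above 0, with a median of 0.22 beside -0.06 for all tested genes, 56.5% of which were below 0. One of the 6 is Cs6g19710 at 0.04, whose sign changed in 2 of 6 fits with a library left out. Another is Cs2g22050 at 0.16, whose sign changed with quantile normalization. From stage 1 to stage 3, 4 were above and 4 below 0, and the medians were -0.18 and 0.01. In that comparison 48.8% of all tested genes were below 0. Without the fold threshold, 2, 1 and 1 members had an adjusted p under 0.05 in the 3 comparisons, whereas 38.4%, 36.0% and 27.3% of all tested genes did.

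The summed FPKM of the 8 genes is given as a description with no test. It was 37.2, 35.5 and 38.8 at stage 1, 26, 23 and 22.9 at stage 2, and 32.3, 34.1 and 33.4 at stage 3. The stages did not overlap, with stage 2 lowest and stage 1 highest. Cs7g11800 alone made up 6.11 to 25.4% of the sum at stage 2 and 25.9 to 33.9% at stage 3. The separation of stages 2 and 3 in the sum rested on this gene. With Cs7g11800 left out of the sum, stage 2 replicate 1 lay above every library of stage 3.

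The spread between libraries of one stage was wide for most of these genes. The SE of their fold changes was 0.17 to 0.38, whereas the median over all tested genes was 0.13. Cs9g16540 had a within-stage SD of 0.48 on the log2(FPKM + 1) scale, larger than that of 94.9% of the 1480 genes whose mean lay within 1.2-fold of its own. For Cs7g11800 this share was 92.2% and for orange1.1t02588 it was 87.2%. Cs5g12270 was in the middle of its neighbours in level, with an SD of 0.21 and a share of 47.5%, and the other 4 genes lay between 72.8 and 78.2%. A difference of a given size was thus harder to detect in 7 of the 8 genes than in most genes of like level.

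**Figure D4:**
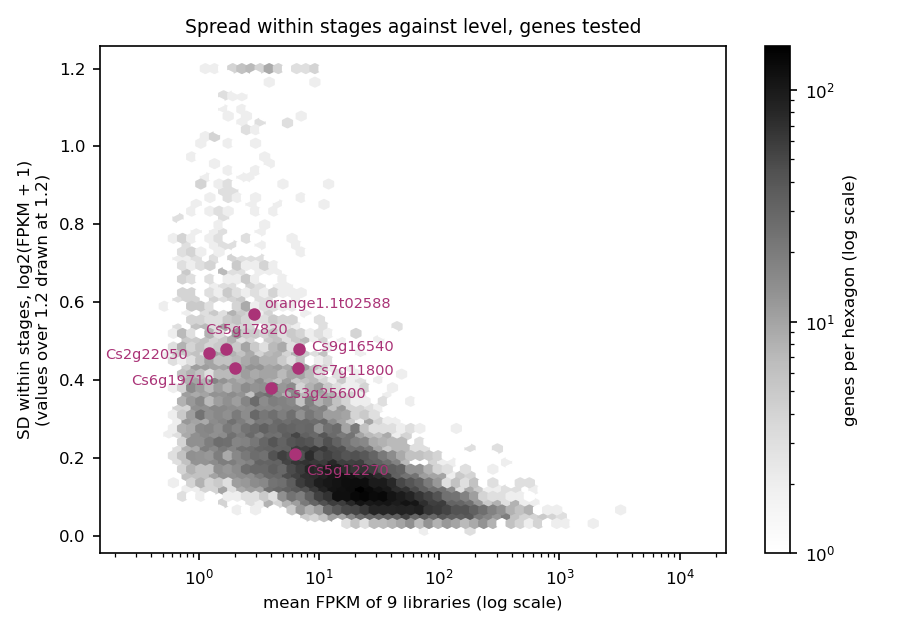
SD between libraries within stages, on the log2(FPKM + 1) scale, against mean FPKM of 9 libraries (log scale), for the 17729 genes tested (grey hexagons, darker with more genes, values over 1.2 drawn at 1.2) and the 8 floral organ identity genes (coloured points). 7 of the 8 points lie in the upper part of the cloud at their level, and Cs5g12270 lies in its middle at 0.21.

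The other genes of the pathway were taken from lists of names. Of 9 genes named for floral meristem identity and flowering time, 6 were tested, and in each comparison with stage 1 the only call was that of Cs5g10810, the FLOWERING LOCUS C-like gene, whose Arabidopsis namesake represses flowering. It had 32.65, 33.29 and 33.37 FPKM at stage 1, 92.77, 88.94 and 85.43 at stage 2, and 78.17, 78.35 and 73.21 at stage 3. It was higher in every library of stages 2 and 3 than at stage 1, with log2 fold changes of 1.40 (adjusted p = 1.3e-08) and 1.19 (adjusted p = 5.3e-08) by limma. The SOC1-like genes, named for an Arabidopsis gene that promotes flowering, were not called. Their means at stages 1, 2 and 3 were 85.3, 80.7 and 76 FPKM for orange1.1t00278 and 45.5, 46.4 and 50.4 FPKM for Cs9g16575. The list had a median of 0.00 for stage 2 against stage 1, beside 0.05 over all tested genes. LEAFY and APETALA1 were searched for by name, and no best match in the table carried either name.

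Of the 12 genes named for cofactors and repressors of floral organ identity genes, all tested, 1 was called, for stage 2 against stage 1. In that comparison 7.85% of all tested genes were called. Without the fold threshold, 4, 5 and 6 of the 12 had an adjusted p under 0.05 in the 3 comparisons. For all tested genes these shares were 38.4%, 36.0% and 27.3%. Of the 4 in the first comparison, 2 were higher at stage 2 and 2 lower. Cs5g10320 is a SEUSS-like gene, and SEUSS of Arabidopsis is a corepressor that keeps an organ identity gene out of the outer whorls. Its FPKM was 5.27, 4.11 and 4.34 at stage 1, 1.24, 1.90 and 1.70 at stage 2, and 3.02, 3.15 and 2.52 at stage 3. It was lower at stage 2 than at stage 1 by a log2 fold change of -1.10 (SE 0.18, adjusted p = 0.00062 by limma), and the libraries did not overlap. Another SEUSS-like gene, Cs3g20690, named after its values had been seen, stood at 86.1, 77.3 and 74.5 FPKM and was not called. Of the 9 genes named for floral organ outgrowth and for carpel, stamen and ovule development, 5 were tested and none was called in any comparison. For that list 1 gene had an adjusted p under 0.05 in each comparison without the fold threshold.

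The genes that mark tissues of the bud moved as well, and their part in the results was not tested. Of 15 markers of shoot meristems and young buds, 10 were tested, and 2 were lower at stage 2 than at stage 1 and higher again at stage 3. These were Cs1g08000 (CUP-SHAPED COTYLEDON 2-like), with means of 2.35, 0.337 and 1.86 FPKM and log2 fold changes of -1.30 and 1.09 (adjusted p of 0.00077 and 0.0027), and Cs3g27630 (CUP-SHAPED COTYLEDON 3-like), with 2.1, 0.37 and 1.77 FPKM and log2 fold changes of -1.19 and 1.04 (adjusted p of 0.012 and 0.024 by limma). Their Arabidopsis namesakes act at the boundaries of organs. The median log2 fold change of the list was -0.48 in the first comparison and 0.43 in the second. In these comparisons 7.85% and 7.46% of all tested genes were called. Of the 15 genes, 11 had a lower mean at stage 2 than at stage 1. The summed FPKM went the other way, with 192.5 to 201.2 at stage 1, 235.8 to 251.7 at stage 2 and 275.2 to 279.1 at stage 3, and this rise lay mostly in Cs3g16460 (knotted-1-like 2-like), with means of 77.1, 128.3 and 144.5 FPKM. Cs2g02590, SHOOT MERISTEMLESS-like and a defining marker of the meristem, had means of 57.3, 70.5 and 70.5 FPKM. Its log2 fold change for stage 2 against stage 1 was 0.29 (adjusted p = 0.014 by limma). Cs1g25270, WUSCHEL-like, had 1.14, 0.80 and 1.13 FPKM at stage 1, 0.00, 0.00 and 0.18 at stage 2, and 1.02, 0.65 and 0.78 at stage 3. Its log2 fold changes were -0.93 and 0.78 in the first and second comparison (adjusted p of 0.0091 and 0.025 by limma). Neither gene reached the fold threshold.

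The 8 markers of green leaf tissue summed to 2013.2 to 2066.8 FPKM at stage 1, 3172.5 to 3876.5 at stage 2 and 3892.8 to 4617.0 at stage 3. Of the 7 tested, 3 were called higher at stage 2 and 4 at stage 3, each against stage 1. The genes called were the chlorophyll a-b binding protein genes Cs2g03780, Cs5g10800 and orange1.1t03504, with log2 fold changes of 1.09, 1.89 and 2.06 at stage 2, and at stage 3 also Cs3g06180, with 1.05. Of all tested genes, 7.85% and 4.93% were called in these comparisons. The 10 markers of vessels and fibres with secondary walls summed to 26.5 to 32.9, 72.1 to 87.7 and 27.2 to 27.6 FPKM at stages 1, 2 and 3, and 9 of the 10 had a lower mean at stage 2 than at stage 1. The sum followed the remaining gene, Cs9g08750 (cellulose synthase A catalytic subunit 8-like), with means of 14.9, 72.4 and 19.5 FPKM. It was called higher at stage 2 than at stage 1 with a log2 fold change of 2.21, and Cs4g01990 (subunit 7-like), at 4.89, 1.63 and 1.5 FPKM, was called lower with -1.20. The 8 markers of pollen and anthers summed to 12.8 to 14.7, 12 to 17 and 12 to 14.9 FPKM, the stages overlapped, and none of the 3 tested was called. Most of this sum lay in Cs2g17760 (POLLEN DEFECTIVE IN GUIDANCE 1-like), with means of 8.37, 9.62 and 8.94 FPKM. The genes named for tapetum and anther, Cs2g07210 and Cs7g09980, reached at most 0.5 and 0.1 FPKM. The number of genes above 0 was 19956 to 20099 per library at stage 1, 19210 to 19579 at stage 2 and 19716 to 19752 at stage 3. The stages stood in the same order by this number as by the summed FPKM of the 8 genes, and its part in that sum was not tested. It was lowest in stage 2 replicate 3, which also held the lowest value of Cs3g25600.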

How the data were processed

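Buds of 3 stages were sequenced, with 3 libraries each. The FASTX-Toolkit and BWA, with the sweet orange genome as reference, were used by the authors for read filtering and mapping, and the deposited values are FPKM with 2 decimals, 1 per gene in each library. For tool versions, the counting program, the use of strand and the build: not given in the sources used here. Read depth cannot be taken from FPKM. The lowest steps between low values, a relative measure that is larger where depth is lower, were 0.939 to 1.145 per library, from 17 to 40 genes. The largest, 1.145 from 17 genes, was that of stage 2 replicate 3. No counting interval is given.

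Values were transformed to log2(FPKM + 1). The fit used limma 3.58.1 in R 4.3.3 with its trend option, 1 mean per stage and no covariate, on genes with at least 1 FPKM in at least 3 libraries, which gave all adjusted p-values. It was tested on simulated data. The study's own test, NOISeq, was replaced in the main analysis by limma to have standard errors, and a NOISeq-style probability was computed from FPKM (0 set to 0.01) as an alternative. Other alternatives were quantile normalization, median scaling, no filter, a filter of 5 FPKM, pseudocounts of 0.1 and 0.01, no trend, an adjusted p under 0.01, no fold threshold, each library left out in turn, the replicate number as a block, and a fit to only the 6 libraries compared.

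The members and the gene lists were chosen with earlier results of these data known. Named are all 8 members, the called genes of each list (at most 4) with the SOC1 matches, and the 3 genes most like each member over the 9 libraries. Any other gene is a marker or is said to have been picked outside this rule. Summaries and plots used Python 3.11.15 with matplotlib 3.10.9, pandas 2.3.3, scipy 1.17.1 and numpy 2.4.6. Sequences and coordinates were not analysed here.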

Additional observations from a re-analysis of the deposited data

How the results depend on the processing

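The direction of the 3 called members held in every alternative that gave a value, and their calls did not. Cs3g25600 (stage 2 against stage 1) had a log2 fold change of -1.29 to -0.78 with each library left out in turn, Cs7g11800 (stage 3 against stage 2) 0.94 to 1.64, and orange1.1t02588 (stage 3 against stage 1) -1.39 to -0.78. The number of members called, 1 in each comparison, was 0 to 1 in each when libraries were left out. For stage 2 against stage 1 it was 0 with quantile normalization, the filter of 5 FPKM, which 3 of the 8 members passed, an adjusted p under 0.01 and the NOISeq-style probability, and 2 with pseudocounts of 0.1 and 0.01 and without the fold threshold. For stage 3 against stage 2 it was 0 with the NOISeq-style probability. For stage 3 against stage 1 it was 0 without a filter, with the filter of 5 FPKM, with both pseudocounts, without the trend, with an adjusted p under 0.01 and with the NOISeq-style probability. The cause of these changes was not tested, apart from genes that a filter removes.

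With the replicate number as a block the members called were 1, 1 and 0 (orange1.1t02588, adjusted p = 0.051), and 1390, 1319 and 872 of all genes were called. Libraries with the same number did not deviate together (correlations of -0.102 to 0.0315 over 9 pairs), and no source says whether a number marks 1 group of trees across the stages, so the numbers were not taken to pair the samples. Without the fold threshold 6800, 6390 and 4845 of all genes were called, against 1391, 1322 and 874 with it, and leaving out libraries gave 1350 to 1402, 1294 to 1336 and 833 to 874. The NOISeq-style probability of Cs3g25600, Cs7g11800 and orange1.1t02588 in these comparisons was 0.70, 0.78 and 0.69, under its threshold of 0.8.

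Signs changed only for differences near 0 that were not called. For stage 2 against stage 1, Cs6g19710 was -0.03 with median scaling, -0.07 and -0.09 with pseudocounts of 0.1 and 0.01, and -0.28 to 0.42 with libraries left out, and Cs5g12270 was -0.09 to 0.08. For stage 3 against stage 2, Cs9g16540 was 0.00 with median scaling and the NOISeq-style ratio and -0.34 to 0.24 with libraries left out, Cs2g22050 was -0.01 with quantile normalization, and Cs6g19710 was -0.05 with quantile normalization, -0.10 as the NOISeq-style ratio and -0.36 to 0.34 with libraries left out. For stage 3 against stage 1, Cs5g17820 was -0.00 and -0.01 with the pseudocounts and -0.28 to 0.24 with libraries left out, and Cs6g19710 was -0.05 to 0.14. Of 361 refitted values of the members, 316 kept direction and side of the threshold, 24 changed sign, 18 lost a call and 3 gained one.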

Other observations

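The genes whose course over the 9 libraries was most like that of a member were found by Pearson's r of log2(FPKM + 1) over 17721 other tested genes, as a description with no test, since the points share the 3 stages and a high r is easily reached over 9 libraries. For Cs7g11800, 39 genes had r above 0.9, led by Cs7g04120 (0.98), Cs1g26870 (0.96) and Cs1g26660 (0.95), all uncharacterized or hypothetical proteins. For Cs3g25600 there were 13, led by Cs1g02890 (E3 ubiquitin-protein ligase ATL4-like), Cs3g15720 and Cs9g18830, each at 0.94. For orange1.1t02588 there were 9, led by Cs8g19700 (proliferating cell nuclear antigen-like, 0.93), Cs3g24560 (cytochrome P450 734A1-like, 0.93) and orange1.1t01751 (0.92). The proliferating cell nuclear antigen is the sliding clamp of DNA replication.

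The other 5 members had between 1 and 7 such genes. Cs5g17820 had 7, led by Cs8g14390 (IQ-DOMAIN 1-like, 0.96), Cs5g14010 (0.93) and Cs4g13420 (deoxyhypusine synthase-like, 0.92). Cs9g16540 had 4, led by Cs7g30350 (0.94), Cs2g09690 and orange1.1t01635 (both 0.92). Cs2g22050 had 4, led by Cs5g05690 (0.93), Cs7g28650 (0.92) and Cs5g33980 (probable carboxylesterase 5-like, 0.91). Cs5g12270 had 3, namely Cs2g05605 (0.93), orange1.1t00401 (0.92) and Cs2g29380 (0.90), and Cs6g19710 had 1, Cs5g29270 (0.92). No 2 members shared a gene among their leading 3.

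Among the 38 other MADS-box genes, a group formed after the values had been seen, 23 were tested. Beside Cs5g10810, 1 of them was called: Cs3g16896, an AGL16-like gene, with means of 0.213, 1.83 and 0.383 FPKM at stages 1, 2 and 3. It reached 1 FPKM only in the 3 libraries of stage 2 and so passed the filter only through the stage in which it was high, and its calls are given no weight. The median log2 fold change of the 23 was -0.01 for stage 2 against stage 1, beside -0.56 for the 8 floral organ identity genes. These medians are given as a description, and the difference between them was not tested.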
